A study of Canis lupus familiaris with 10 samples.

Results

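The genes described here are 8 regulators of the cell cycle. These are MDM2, the retinoblastoma gene RB1, the CIP/KIP inhibitors CDKN1A, CDKN1B and CDKN1C, and the INK4 inhibitors CDKN2A, CDKN2B and CDKN2C. They were taken by name from a table of 23266 gene symbols, by a rule that uses no measured value. The table has rows for 7 of the 8 genes, and all 7 passed the filter on low values that kept 12397 genes for testing. CDKN1C has no row under that symbol and was not analysed here.

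Expression was measured by QuantSeq 3′, in which each transcript yields a read near its polyadenylated end, so that read numbers can be compared between genes without a correction for length. The tissue was formalin-fixed, paraffin-embedded (FFPE) canine cutaneous histiocytoma (CCH), a benign tumor of Langerhans cell origin in the skin of dogs that commonly regresses while lymphocytes move in. The 5 early tumors belong to group 1 of the histological scheme of Cockerell and Slauson, and the 5 late tumors to group 3, which the labels call lymphocyte enriched. Each tumor came from a different dog, several breeds were included, and the labels give no treatment or genetic change. The dogs were 0.5 to 5 years old in early CCH (age given for 4 of 5) and 1.5 to 9 years in late CCH. The columns of the table show the stage but not the dog, and the library numbers 1 to 5 used below are arbitrary names within a stage.

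An early library held 3132916 to 4439709 reads assigned to genes and a late library 2973125 to 3230455. A count of 0 would allow up to 3 reads, which corresponds to a normalized read count of 2.36 to 3.22. The share of RNA fragments above 200 bases (DV200), a measure of RNA quality, was 64.5 to 71.2% in early and 71.2 to 75.8% in late samples (exact two-sided permutation test, p = 0.0238). The study lists different RNA extraction batches and index sets for the stages, so that stage, RNA quality and batch cannot be told apart. The tissue markers moved with stage as well. The summed normalized read count of 9 T cell markers was 78.1 to 2394 in early and 3525 to 5871 in late libraries, and that of 6 B cell markers 47.2 to 203 in early and 391 to 2269 in late libraries. With BH adjustment limma called 9 of 9 T cell and 3 of 5 tested B cell markers higher in late CCH, beside 685 of all 12397 genes tested. The Langerhans cell markers with a row, CD1A8, FLT3, EPCAM and CDH1, summed to 363 to 1017 in early and 126 to 381 in late libraries, while CD207, a defining marker, has no row. FLT3 was lower in late CCH by limma with Benjamini-Yekutieli (BY) adjustment (log2FC -2.89, adjusted p = 0.0434). Macrophage markers summed to 2333 to 8696 in early and 4415 to 8475 in late libraries, keratinocyte markers to 872 to 15582 and 636 to 7660, fibroblast markers to 7742 to 60728 and 10713 to 35886, and endothelial markers to 432 to 792 and 539 to 1090. The part of these shifts in the values of the cell cycle genes was not tested. In such bulk tissue, fewer cells of a type and less RNA per cell cannot be told apart.

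Cells pass from G1 into S phase when cyclin D with CDK4 or CDK6, and then cyclin E with CDK2, phosphorylate the RB protein, which releases the E2F transcription factors. INK4 proteins bind CDK4 and CDK6, and CIP/KIP proteins bind cyclin and CDK complexes more broadly. CDKN1A and MDM2 are both switched on after DNA damage or stress. Loss of CDKN2A or of RB1 is among the most frequent events in malignant tumors.

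In late CCH, 6 of the 7 measured genes had a lower mean than in early CCH, and 1, CDKN1B, had a slightly higher one. Differences were taken as late minus early on the scale log2(normalized read count + 1), fitted with limma, and a call required both a log2FC of 1 or more in either direction and a BY adjusted p no higher than 0.05. By this rule none of the 7 genes was called (0 of 7), against 269 of 12397 in the whole table (2.17%; 131 higher and 138 lower in late CCH). With Benjamini-Hochberg (BH) adjustment and the same fold threshold, 1 of 7 was called, CDKN2A, against 9.04% of all genes. An unadjusted limma p of at most 0.05 was reached by 3 of 7 genes, CDKN2A, CDKN2C and MDM2, all 3 lower in late CCH, where 15.3% of all genes were lower at that level and 15.6% higher. The late values lay entirely outside the early ones for 0 of 7 genes and for 12.0% of all genes. A log2FC below 0 was found for 6 of the 7 genes and for 50.2% of all genes. The median log2FC of the 7 genes was -0.42, beside -0.0037 for all genes, whose median size of log2FC was 0.41. The size of the log2FC exceeded that of 13.3% of the genes for CDKN1B, the smallest of the 7, and that of 86.6% of the genes for CDKN2A, the largest.

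**Figure D1:**
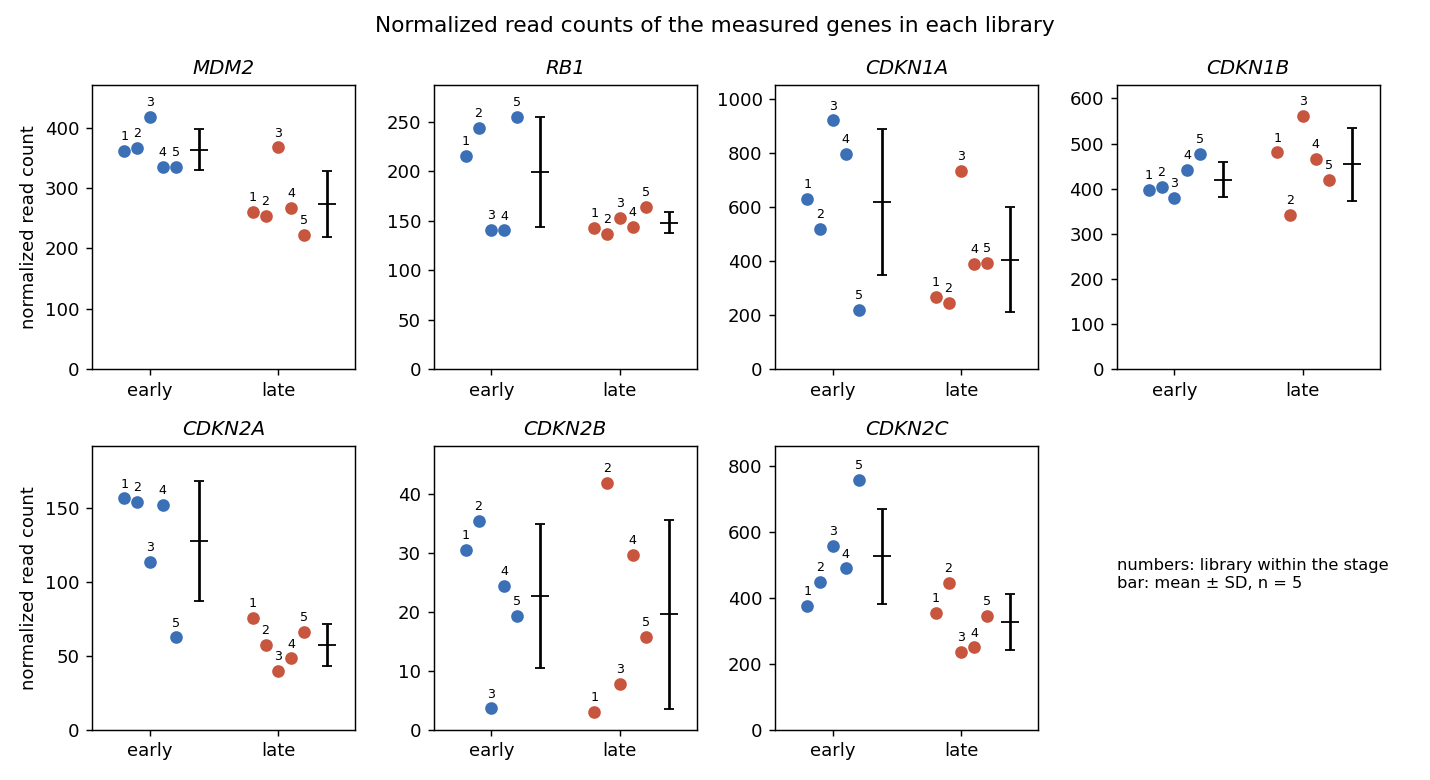
Normalized read count (vertical axes, linear and starting at 0) of the 7 measured genes in each of 5 early (blue) and 5 late (red) libraries, with the number of the library beside each point and the mean ± SD (n = 5) in black. CDKN2A lay between 62.3 and 156 in early and between 39.7 and 75.6 in late libraries, whereas for CDKN1B the early range of 379 to 477 lay within the late range of 342 to 562.

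Ordered by level, early CCH had most reads of CDKN1A, then of CDKN2C, CDKN1B, MDM2, RB1, CDKN2A and CDKN2B. In late CCH, CDKN1B stood first, followed by CDKN1A, CDKN2C, MDM2, RB1, CDKN2A and CDKN2B. Neighbors in these orders mostly overlapped in range. The exceptions were MDM2 above RB1 in both stages, CDKN2A above CDKN2B in early CCH, and RB1 above CDKN2A in late CCH.

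MDM2, which encodes a ubiquitin ligase of the damage response, had normalized read counts of 362, 366, 418, 335 and 335 in early libraries 1 to 5. In late libraries 1 to 5 the values were 260, 254, 367, 267 and 222. Late libraries 1, 2, 4 and 5 lay below every early library, and late library 3 fell within the early range. Means were 363 ± 34.0 and 274 ± 54.7 in early and late CCH (SD, n = 5 each). The log2FC was -0.42 ± 0.15 (SE; 95% confidence interval -0.75 to -0.09), with a limma p of 0.0176 that did not pass the BY adjustment (adjusted p = 0.832). MDM2 was one of the steadiest genes of the table within a stage, its within-stage SD on the log2 scale being larger than that of 7.9% of the genes tested. The unadjusted limma p remained at most 0.05 without any single library and was 0.0574 after scaling to the column totals.

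RB1, the pocket protein that restrains E2F, had values of 216, 244, 141, 140 and 256 in the early libraries. The late values were 143, 137, 153, 144 and 164. Early CCH thus held 3 libraries above 200 and 2 near 140, while the late libraries all lay close to the lower early pair. The coefficient of variation was 27.8% in early and 6.99% in late CCH. Means were 199 ± 55.4 and 148 ± 10.4 (SD, n = 5 each). The log2FC of -0.38 ± 0.20 (SE) had a 95% confidence interval of -0.81 to 0.05. With a limma p of 0.0800 and a BY adjusted p of 1, no difference of RB1 was detected. The interval includes 0 as well as falls down to -0.81. The unadjusted limma p was 0.0299 without early library 3, 0.0250 without early library 4 and 0.0494 with library weights. It was 0.180 without early library 2 (log2FC -0.30), 0.199 without early library 5 (-0.28) and 0.179 after scaling to the column totals (-0.29). Of the 10 fits without a library, 2 had an unadjusted limma p of at most 0.05.

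CDKN1A encodes p21, a damage-induced inhibitor of CDK2 complexes. Its normalized read counts were 630, 519, 920, 796 and 219 in the early libraries and 266, 244, 733, 389 and 392 in the late libraries. Early library 5 had the lowest value of all 10, and late library 3 lay among the high early ones, so that the stages overlapped widely. The means were 617 ± 270 in early and 405 ± 196 in late CCH (SD, n = 5 each), with a log2FC of -0.57 ± 0.38 (SE; 95% confidence interval -1.40 to 0.26), a limma p of 0.160 and a BY adjusted p of 1. Without early library 5 the log2FC was -0.90, with a limma p of 0.0115 and a BY adjusted p of 0.793. Without late library 3 it was -0.81, with an unadjusted limma p of 0.0460. Of the 10 fits without a library, only these 2 had an unadjusted limma p of at most 0.05. The log2FC was smaller in size than with all libraries when early library 3 (-0.39) or late library 2 (-0.42) was left out. The same held for early library 4 (-0.44), late library 1 (-0.45) and early library 1 (-0.52). The within-stage SD of CDKN1A exceeded that of 76.6% of the genes, the widest spread of the CIP/KIP genes and MDM2. The ratio of CDKN1A reads to MDM2 reads, both damage-induced genes, ranged from 0.654 to 2.38 in early and from 0.959 to 2.00 in late libraries, and these ranges overlapped.

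CDKN1B encodes p27, the inhibitor typical of resting cells, which is controlled to a large part by degradation of the protein and by FOXO factors. Values were 397, 404, 379, 441 and 477 in the early libraries and 480, 342, 562, 465 and 419 in the late libraries. Late library 2 was the lowest and late library 3 the highest of all 10. Means were 420 ± 39.1 and 453 ± 81.1 (SD, n = 5 each). The log2FC was 0.10 ± 0.15 (SE), and the 95% confidence interval of -0.23 to 0.42 leaves room for small differences in either direction, with a limma p of 0.527 and a BY adjusted p of 1. CDKN1B varied within a stage more than only 7.8% of the genes.

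CDKN2A encodes p16 and, from another first exon and reading frame, ARF, which binds MDM2. Both transcripts share their downstream exons, and 3′ reads counted per gene symbol do not separate them. The early libraries had normalized read counts of 156, 154, 113, 152 and 62.3. The late libraries had 75.6, 57.1, 39.7, 48.1 and 66.1. Early libraries 1 to 4 all lay above every late library, whereas early library 5 fell inside the late range. The mean was 127 ± 40.5 in early and 57.3 ± 14.2 in late CCH (SD, n = 5 each), 2.14-fold lower in late CCH on the log2(value + 1) scale. The log2FC was -1.10 ± 0.28 (SE; 95% confidence interval -1.72 to -0.48), with a limma p of 0.00211, a BY adjusted p of 0.227 and a BH adjusted p of 0.0227. DESeq2 on the recovered reads called CDKN2A with BY adjustment (log2FC -1.15, adjusted p = 0.0199), and edgeR did not. The limma call with BH adjustment held in 7 of 10 fits without a single library: it was lost without early library 1 (adjusted p = 0.0573), without late library 4 (adjusted p = 0.0578) and without late library 3 (log2FC -0.98). Without early library 5 the log2FC was -1.33.

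CDKN2B, which encodes p15 and is the direct neighbor of CDKN2A in the genome, was the least expressed of the genes. Its values of 30.5, 35.4, 3.62, 24.4 and 19.3 in the early libraries rested on 32, 38, 4, 31 and 18 reads. The late values of 2.98, 41.9, 7.75, 29.7 and 15.7 rested on 3, 44, 8, 29 and 15 reads. Each stage contained libraries with fewer than 10 reads and libraries with about 30 or more, and the highest and the lowest value were both late. Means were 22.6 ± 12.2 in early and 19.6 ± 16.0 in late CCH (SD, n = 5 each). The log2FC was -0.37 ± 0.72 (SE; 95% confidence interval -1.93 to 1.20), with a limma p of 0.620 and a BY adjusted p of 1. It changed sign without late library 1, to 0.11. No difference of CDKN2B was detected. Its within-stage SD exceeded that of 93.9% of the genes.

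CDKN2C encodes p18, an INK4 inhibitor known for its part in lymphocyte differentiation. The early values were 376, 448, 557, 489 and 757, and the late values 353, 446, 236, 250 and 344. Late libraries 1, 3, 4 and 5 lay below every early library, and late library 2 lay within the early range. The mean was 525 ± 145 in early and 326 ± 85.7 in late CCH (SD, n = 5 each). The log2FC of -0.69 ± 0.22 (SE; 95% confidence interval -1.16 to -0.21) had a limma p of 0.00839 and a BY adjusted p of 0.521. The unadjusted limma p was at most 0.05 in all 10 fits without a single library, with log2FC from -0.81 to -0.54.

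**Figure D2:**
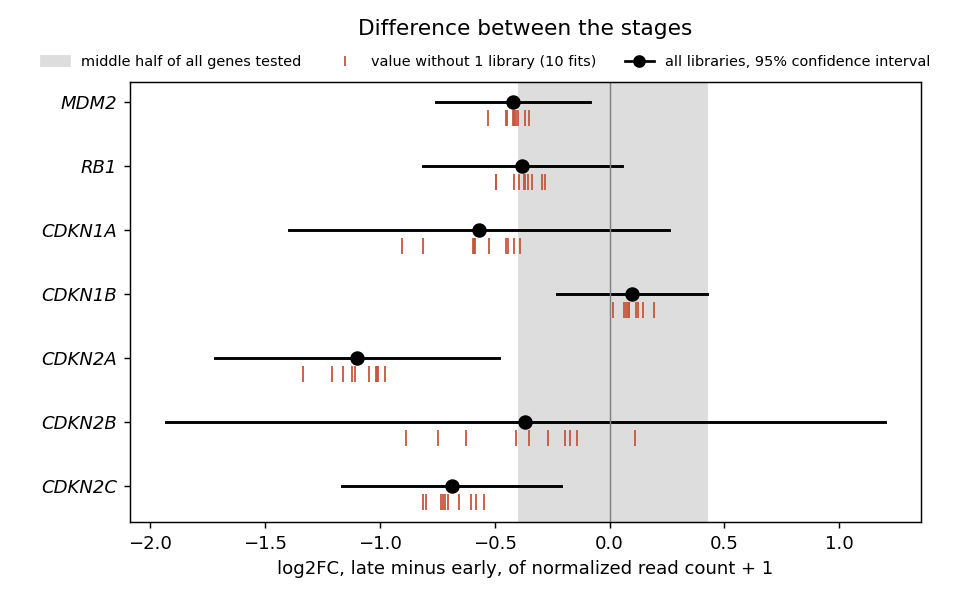
Difference between the stages for each measured gene as log2FC, late minus early, of the normalized read count + 1 (horizontal axis; black points with 95% confidence intervals), with the 10 values obtained without a single library as red ticks. The gray band spans the middle 50% of the genes tested, from -0.39 to 0.42, and CDKN2A at -1.10 is the gene farthest outside it.

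Libraries differed within a stage in more than 1 of the genes. Early library 5 had the lowest CDKN1A and CDKN2A of the early libraries and their highest RB1, CDKN1B and CDKN2C. Its summed keratinocyte markers (872) and B cell markers (47.2) were also the lowest of the early libraries. Its other marker sums lay within the range of the other early libraries. Late library 3 had the highest MDM2, CDKN1A and CDKN1B of the late libraries and their lowest CDKN2A and CDKN2C. Its summed B cell markers (2269) were the highest and its keratinocyte markers (636) and T cell markers (3525) the lowest of the late libraries. These values stand beside each other and their relation was not tested.

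The reads of the CDK inhibitor genes were also summed, including CDKN2D, the remaining INK4 gene. Normalized read counts of these 6 genes summed to 1763 to 2079 in early and 1253 to 1706 in late libraries, without overlap on this scale. Single genes did not overlap in 12.0% of all genes. Relative to the column totals the sums overlapped. Late library 3 held 1762 of 3230455 reads, a larger share than the 1643 of 3132916 in early library 5. Of the summed CDK inhibitor reads CDKN1B made up 22.2% ± 3.19 in early and 32.9% ± 4.31 in late CCH (SD, n = 5 each). Its share was 18.2 to 27.0% in early and 27.3 to 37.1% in late libraries, and without CDKN2D these ranges overlapped (19.2 to 31.1% and 30.2 to 40.8%). CDKN2A contributed 6.70% ± 2.20 in early and 4.26% ± 1.30 in late CCH. CDKN1A held 31.7% ± 12.1 and 28.4% ± 9.49, and CDKN2C 27.8% ± 8.76 and 24.3% ± 8.15. The 4 INK4 genes together held 46.1% ± 8.96 in early and 38.7% ± 11.1 in late CCH, which overlapped. These shares are a description and were not tested.

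**Figure D3:**
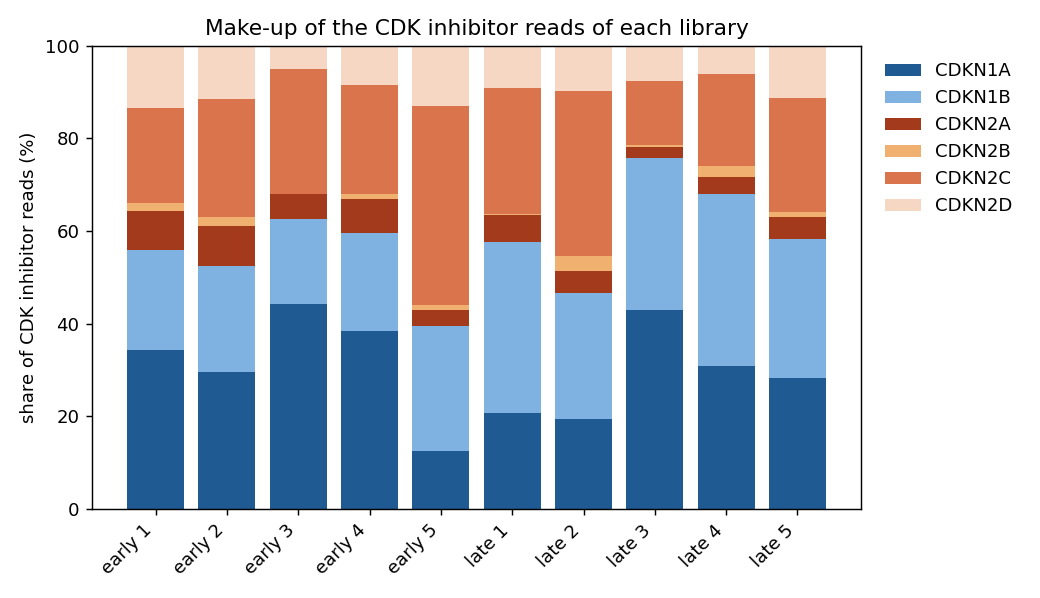
Share of each gene in the summed normalized read counts of 6 CDK inhibitor genes (vertical axis, percent) for each early and late library, CIP/KIP genes in blue and INK4 genes in red and orange. CDKN1A ranged from 12.4% in early library 5 to 44.3% in early library 3. The CDKN1B band was wider in each late library (27.3 to 37.1%) than in each early library (18.2 to 27.0%). Without CDKN2D these CDKN1B ranges overlapped (30.2 to 40.8% and 19.2 to 31.1%), and the log2FC of CDKN1B itself was 0.10.

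Around these genes, 120 genes of DNA damage, cell cycle and tumor suppressor pathways were taken in 9 lists, of which 113 were tested. With BY adjustment limma called 0 of 113, edgeR 0 and DESeq2 4, beside 269, 177 and 810 of all 12397 genes. At an unadjusted limma p of at most 0.05, 28 of the 113 genes differed, 20 lower and 8 higher in late CCH, where 15.3% of all genes were lower and 15.6% higher. The balance was not stable: it was 12 lower and 17 higher after scaling to the column totals, 12 lower and 11 higher without early library 3, and 13 lower and 8 higher without early library 1. With BH adjustment and the fold threshold limma called 6 (5.31%, against 9.04% of all genes): HIPK2, TP73 and FOXO1 higher, and SESN1, TIGAR and NF1 lower. This count was 3 without early library 5 or late library 4, 4 without early library 3 or late library 2, and at most 8 in the other fits without a library. HIPK2 and TP73 were called in all 10 of these fits. FOXO1 was lost without early library 5 or late library 4, SESN1 without early library 5 or late library 2, and TIGAR without early library 3, early library 4 or late library 4. The median log2FC of the 113 genes was -0.15, and it was -0.01 without late library 3, -0.07 without late library 4, -0.09 without early library 1 and -0.06 after scaling to the column totals.

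MDM4, the partner of MDM2, had a log2FC of 0.25. Of the 10 genes in the list of damage signaling, 8 had a log2FC above 0, where 50.2% of all genes lay below 0. The median of the list was 0.38. HIPK2, a kinase of the damage response, was higher in late CCH (mean 69.8 ± 28.4 and 175 ± 29.0; log2FC 1.42; limma BH adjusted p = 0.0109, BY adjusted p = 0.109). So was the transcription factor TP73 (25.4 ± 21.0 and 125 ± 38.5; log2FC 2.70; limma BH adjusted p = 0.0121, BY adjusted p = 0.121). For 3 of the 10 genes, these 2 among them, every late value lay above every early one, where 12.0% of all genes did not overlap in either direction. The lowest log2FC of the list was that of CHEK1, at -0.46.

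Among genes known to be induced by damage or stress other than CDKN1A and MDM2, 21 of 26 were tested. Of these, 17 had a log2FC below 0, beside 50.2% of all genes, and the median of the list was -0.36. BBC3, SESN1, ZMAT3, XPC, TIGAR, CCNG1 and RPS27L (7 of 21) were lower at an unadjusted limma p of at most 0.05, and 0 of 21 were higher, beside 15.3% and 15.6% of all genes. SESN1, a stress-induced regulator of growth signaling, was the lowest (log2FC -1.19; limma BH adjusted p = 0.0185, BY adjusted p = 0.186). TIGAR, a regulator of glycolysis, had a log2FC of -1.10 with every late value below every early one (limma BH adjusted p = 0.0133, BY adjusted p = 0.133). PMAIP1, a promoter of apoptosis, had the highest log2FC of the list, at 0.60. The count of 7 lower genes varied from 3 (without early library 3) to 8, was 4 without early library 1, late library 1 or late library 4, and became 4 lower and 3 higher after scaling to the column totals.

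In the list of G1 cyclins and CDKs, which also holds CDC25A, SKP2 and CKS1B, 8 of 11 genes had a log2FC below 0, beside 50.2% of all genes. The median of the 11 was -0.12, and it was -0.02 without early library 3, -0.03 without late library 3, -0.22 without late library 1 and -0.03 after scaling to the column totals. CCND1 (log2FC -0.97), CCND2 (-0.73) and SKP2 (-0.75), whose product marks p27 for degradation, reached an unadjusted limma p of at most 0.05. At that level 3 of 11 were thus lower and 0 higher, beside 15.3% and 15.6% of all genes. CDK4 (-0.12) did not reach it and CDK6 had the highest value (0.86). The means of CCND1, the most abundant of the list, were 2422 ± 662 and 1320 ± 615 (SD, n = 5 each; limma BY adjusted p = 0.712). Of 14 pocket protein, E2F and DREAM complex genes tested, 1, E2F3, was higher (0.48) at an unadjusted limma p of at most 0.05. Likewise 1, TFDP1, was lower (-0.55), beside 15.6% of all genes higher and 15.3% lower. The median of this list was -0.11, turned to 0.05 without late library 3 and was -0.02 after scaling to the column totals. Of 25 S phase and mitosis genes, 19 had a log2FC below 0, beside 50.2% of all genes. At an unadjusted limma p of at most 0.05, 3 of the 25, TOP2A, TYMS and TK1, were lower, where 15.3% of all genes were lower. The median of the 25 was -0.19, with -0.04 without late library 3 and -0.35 without late library 5. The extremes were UBE2C at -0.62 and MKI67 at 0.67. This count of 3 lower genes varied from 0 (without early library 3) to 7 (without late library 5), was 1 without early library 1, late library 3 or late library 4 and 5 without early library 4, and was 0 after scaling to the column totals.

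The Polycomb and demethylase genes that are known to control the INK4 locus had a median log2FC of 0.22. SUZ12 (0.82) and CBX7 (0.63), 2 of 9, were higher at an unadjusted limma p of at most 0.05, beside 15.6% of all genes. At that level 0 of 9 were lower, beside 15.3%. BMI1, a repressor of CDKN2A, had the lowest value (-0.47). Among the FOXO factors, FOXO1 was higher (log2FC 1.48; limma BH adjusted p = 0.0206, BY adjusted p = 0.206), FOXO4 had a log2FC of -0.92 and FOXO3 of -0.01. CDKN2D, which encodes p19, had a log2FC of -0.66, with a limma p of 0.0236 and a BY adjusted p of 1. Its means were 192 ± 55.6 and 120 ± 28.7 (SD, n = 5 each). The phosphatase gene CDKN3 had a log2FC of -0.72. Of 18 other tumor suppressors, 11 had a log2FC above 0, where 50.2% of all genes lay below 0. The median of the 18 was 0.23. NF1, a brake on RAS, was lower (log2FC -1.00; limma BH adjusted p = 0.0321, BY adjusted p = 0.321), but its BH call was lost in 8 of 10 fits without a library, all except those without early library 2 and late library 3, and with a pseudocount of 5, TMM scaling and column total scaling. LATS2, BAP1 and VHL were lower and SMAD4 higher at an unadjusted limma p of at most 0.05. With NF1 this made 4 of 18 lower and 1 higher, beside 15.3% and 15.6% of all genes. These list counts became 3 lower and 6 higher after scaling to the column totals. FHIT had the highest log2FC, at 1.09.

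**Figure D4:**
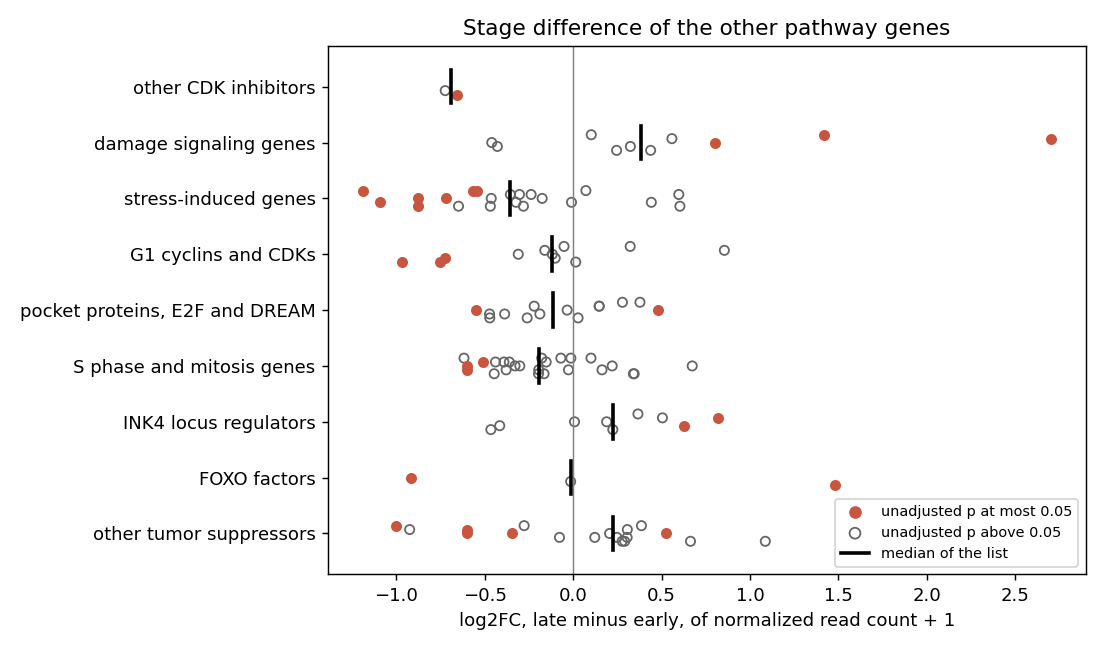
The log2FC, late minus early, of the normalized read count + 1 (horizontal axis) of the 113 tested pathway genes, 1 row of points for each of 9 lists, with a black bar at the median of a list and filled points for genes with an unadjusted limma p of at most 0.05. The stress-induced genes lie mostly left of 0 (median -0.36) and the damage signaling genes mostly right of it (median 0.38), with TP73 at 2.70 as the highest point.

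The genes whose pattern over the 10 libraries was most like that of a cell cycle gene were named from 11111 candidates by Pearson's r of log2(normalized read count + 1). These values are descriptive, since the libraries share stage and batch. For MDM2 they were MB21D1 (r = 0.91) and FGFR3 (0.91), for RB1 IL1R2 (0.94), and for CDKN1A RBPMS (0.94) and GPR157 (0.92). For CDKN1B they were RBM48 (0.95) and KCNMB4 (0.92), and for CDKN2C SETD6 (0.96) and EIF1AX (0.92). TMEM245 and XXYLT1 were nearest to CDKN2A (0.93 each), and TMEM245 had means of 229 in early and 105 in late CCH. VKORC1 (0.90) and RHBDL3 (0.89) were nearest to CDKN2B.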

How the data were processed

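The deposited table gives a normalized signal per gene and library, which the authors obtained by dividing read counts by a size factor for each library. Per the authors' methods and the labels, reads were trimmed with Cutadapt, aligned with STAR to CanFam3.1 and counted with featureCounts. Versions are not given in the sources used here. Of 21 value columns, 11 match no sample and were not used. All 166096 values above 0 (100%) were whole multiples of 1 read (tolerance 1e-06), so that reads could be recovered.

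Since the values are not raw counts, the main test was limma 3.58.1 in R 4.3.3, fitted to log2(value + 1) with its trend option. The filter required 10 or more in 5 or more libraries, and 5 late were compared with 5 early libraries without covariates. edgeR 4.0.16 and DESeq2 1.42.0 on the recovered reads, BH adjustment, pseudocounts of 0.5 and 5, no filter, a mean of at least 50, TMM and column total scaling, no fold threshold, library weights and leaving out each library were alternatives. The basic limma, edgeR and DESeq2 fits were checked on simulated counts with a fixed dispersion and no batch effect, a simpler setting than these data. The other alternatives were not checked in this way. P-values measure the spread between tumors of different dogs. The limit of 3 reads covers counting error only.

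The genes and lists were chosen with earlier results of these data known. Named were the 8 genes, the 2 symbols not starting with LOC that were most correlated with each measured one, and from each list the highest, the lowest and any called gene. Genes named for an unadjusted p of at most 0.05, and MDM4, CDK4 and FOXO3, were added after their values were seen. Some items, among them a gene of the lists and a correlated gene, are not reported here. Sequences were not used here.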

Additional observations from a re-analysis of the deposited data

How the results depend on the processing

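The count of genes called was 269 and moved to 177 with edgeR, 810 with DESeq2, 1121 with BH adjustment and 418 with library weights, and it ranged from 49 (without early library 5) to 260 when a library was left out. It was 54 without late library 2, 66 without late library 4, 75 without early library 1, 87 without late library 1 and 113 without late library 5. Scaling to the column totals called 169 higher and 95 lower, beside 131 and 138, and moved the median log2FC of all genes to 0.085. Of the 7 measured cell cycle genes, 0 were called, 1 (CDKN2A) with DESeq2 and 1 with BH adjustment, and 0 in each fit without a library. Of the 113 pathway genes, 0 were called, 4 with DESeq2 and 6 with BH adjustment, and 0 in each fit without a library. The BY adjusted p of CDKN2A ranged from 0.0199 to 0.577. The direction of all 7 genes held under every alternative run, except that the log2FC of CDKN2B was 0.11 without late library 1, the highest of its values without a library, of which the lowest was -0.88. CDKN2B was not tested at a mean of at least 50. The shares of CDKN1B and CDKN2A among the CDK inhibitor reads kept their direction, with differences of 9.62 to 12.1 and -3.23 to -1.94 percentage points without a library. The causes of these changes were not tested. No paired analysis was possible because early and late tumors came from different dogs and no replicate numbers are given in the table. CDKN2B rested on the fewest reads, 3 to 44 per library.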

Other observations

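Of the pathway genes with a row, 5 did not pass the filter on low values. The DREAM complex gene LIN37 had a mean normalized read count of 4.82 ± 2.57 in early and 10.9 ± 3.20 in late CCH (SD, n = 5 each), and every late value lay above every early one, as values did on either side for 12.0% of the genes tested. E2F5 had means of 4.66 ± 2.15 and 0.986 ± 1.72. The stress-induced genes GDF15 (2.38 ± 1.40 and 5.21 ± 3.94) and SUSD6 (2.03 ± 0.725 and 4.86 ± 4.45) were near the value of 3 reads, and SPATA18 (1.64 ± 2.23 in early CCH) was at 0 in all 5 late libraries. These genes entered only the fit without the filter, and their single results from it are not given here. In that fit 8 of 24 stress-induced genes were lower and 1 higher at an unadjusted limma p of at most 0.05. Of 16 pocket protein, E2F and DREAM genes, 3 were lower and 1 higher at that level. Of all genes in that fit, 4650 of 22072 reached it in either direction.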
